A study of Homo sapiens with 10 samples.

Results

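The integrated stress response genes described here are ATF4, the transcription factor at the centre of this response, and 9 genes whose transcription it is known to raise: ATF3, DDIT3, TRIB3, CHAC1, DDIT4, SESN2, ASNS, NUPR1 and GDF15. They were chosen by name, and all 10 were among the 19893 genes of the deposited count matrix. They were measured in Kuramochi, a human epithelial line of high-grade serous ovarian cancer with a mutated BRCA2 gene, by single-cell RNA-seq with and without olaparib, a drug that blocks PARP enzymes, which act in the repair of DNA breaks. The control cells were drug-naive. Persister cells were drug-naive cells exposed for 9 days to 10 µM or 320 µM olaparib, and adapted cells were olaparib-resistant populations at the same 2 doses. All 5 conditions came from this 1 line with its BRCA2 mutation and were grown in the same medium, supplemented with non-essential amino acids, L-glutamine and insulin. Whether the mutation was unchanged in the adapted populations was not examined here. How long the adapted populations had been in drug, and whether they descended from few cells, is not given in the sources used here. Hashtagged cells of the 5 conditions were mixed into 2 pools.

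In the integrated stress response, the kinases EIF2AK1 (HRI), EIF2AK2 (PKR), EIF2AK3 (PERK) and EIF2AK4 (GCN2) each sense a different stress and phosphorylate the translation factor eIF2. General protein synthesis then slows, while the ATF4 message, whose translation short upstream reading frames hold back in unstressed cells, is translated better. ATF4 protein pairs with C/EBP and AP-1 family partners on C/EBP-ATF response elements and raises genes for amino acid supply, antioxidant defence, mTORC1 restraint and, through CHOP (the product of DDIT3), cell death. Much of the control of ATF4 lies in translation, so the mRNA counts below do not measure its protein or its activity.

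The start regions of the genes were searched for the core of the C/EBP-ATF response element because ATF4 dimers are known to bind such elements. A match describes letters in a window and not a bound site. RefSeq windows of 300 bases, from 250 before to 50 after a gene's start on GRCh38.p14, were used for 9 of the 10 genes, all but NUPR1. The core, TGATGNAA on either strand, was found in windows of 3 of them, and in 4.46% of all 27305 genes with a window. A gene can have more than 1 window, and the core was in 3.62% of all 35116 windows. The cAMP response element TGACGTCA (on either strand, 2.25% of genes) and the endoplasmic reticulum stress response element (on either strand, 0.0916%) occurred in none of the 9. The matches are shown 5′ to 3′ on the strand of the gene with the core in capitals, for ATF3 in the upstream part of the window, chr1:212565157-212565283, on the plus strand, for ASNS at chr7:97872458-97872487 on the minus strand, and for CHAC1, where the core reads on the opposite strand, at chr15:40953251-40953280 on the plus strand.
ATF3: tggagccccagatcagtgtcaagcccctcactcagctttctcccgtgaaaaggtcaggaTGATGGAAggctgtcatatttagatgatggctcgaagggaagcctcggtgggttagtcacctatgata
ASNS: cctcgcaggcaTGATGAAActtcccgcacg
CHAC1: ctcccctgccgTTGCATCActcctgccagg
The matches begin 191 bases before a start of ATF3, 68 before a start of ASNS and 209 before that of CHAC1, counted from the RefSeq start of each window. ATF3 and ASNS have 2 windows each, and the other window of each held no core. CHAC1 has 1 window. GENCODE 29 starts ASNS and CHAC1 further upstream, so both matches lie in exons of its gene models, and the match of ATF3 does not. The 3 genes that carry the core did not share a pattern over the conditions, as the values below show: ATF3 fell in 3 of the 4 treated conditions, whereas ASNS and CHAC1 rose in all 4.

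Cells were summed by condition and pool into 10 sums of 3532281 to 23189583 UMIs (unique molecular identifiers, each marking 1 captured mRNA molecule), and levels are given in CPM, the UMI count of a gene scaled to one common library size. The smallest sums were those of the 10 µM persister cells, with 300 and 263 cells, where 3 UMIs amount to 0.849 and 0.801 CPM. All levels of the 10 genes lay above this floor. Median depth per cell ran from 8131 to 15213 UMIs and was highest in 10 µM persister cells. All 8 epithelial and ovarian serous markers checked were in the matrix, and their summed level ran from 1223 CPM in cells adapted to 320 µM to 4295 CPM in control cells, with CDH1 at 0.411 ± 0.0185 CPM in control cells and WT1 going from 24.9 ± 1.32 there to 0.898 ± 0.208 in cells adapted to 320 µM. Summed leukocyte markers stayed between 0.973 and 19.0 CPM, with CD3D, CD3E and MS4A1 at 0 in all sums, and CD68 accounted for 17.9 ± 0.704 CPM where they were highest, in cells adapted to 320 µM. Summed fibroblast markers were at 2.21 to 12.9 CPM, except for 186 and 183 CPM in the 2 sums of cells adapted to 10 µM, and summed endothelial markers were at 1.38 to 7.21 CPM, except for 23.1 and 22.2 CPM in those sums. The part of these cell states in the levels below was not tested. Of the barcodes of 13800 cells, 13 occurred in both pools. The labels do not say whether the pools hold separate cultures. The spread behind the p-values is therefore that between 2 pools and may be technical. After ±, log2 changes carry their standard error (SE), and levels and shares carry the SD of 2 pools.

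Against drug-naive cells at least 8 of these 10 transcripts were higher in each drug condition. NUPR1 and GDF15 had the largest rises in persister cells, and GDF15 in adapted cells. ATF3 was the one that fell. At an adjusted p under 0.05 (edgeR quasi-likelihood test, adjusted over all 13330 genes tested), 9 of the 10 genes rose and 1 fell in 10 µM persister cells, where 56.6% of all genes were called (27.3% as higher, 29.3% as lower). All 10 rose in 320 µM persister cells, against 54.6% of all genes called (26.3% higher, 28.3% lower). In cells adapted to 10 µM, 9 rose and 1 fell (all genes 67.1%, 33.7% higher, 33.4% lower). In cells adapted to 320 µM, 8 rose, 1 fell and SESN2 was not called (all genes 74.5%, 37.6% higher, 36.9% lower). Scaling by library totals alone moved the median of all genes by 0.12 in 10 µM persister cells and -0.23 in cells adapted to 320 µM, took the share of rises among genes called in the latter from 50.5% to 37.4% and changed no call among the 10 in any of the 4. The median log2 change of the 10 genes was 1.92 in 10 µM persister cells, 2.67 in 320 µM persister cells, 1.60 in cells adapted to 10 µM and 2.03 in those adapted to 320 µM, while the median over all genes tested lay between -0.026 and 0.0091. These 4 comparisons share the 2 control sums. A sum does not tell apart more cells that hold a transcript from more transcript per cell.

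**Figure D1:**
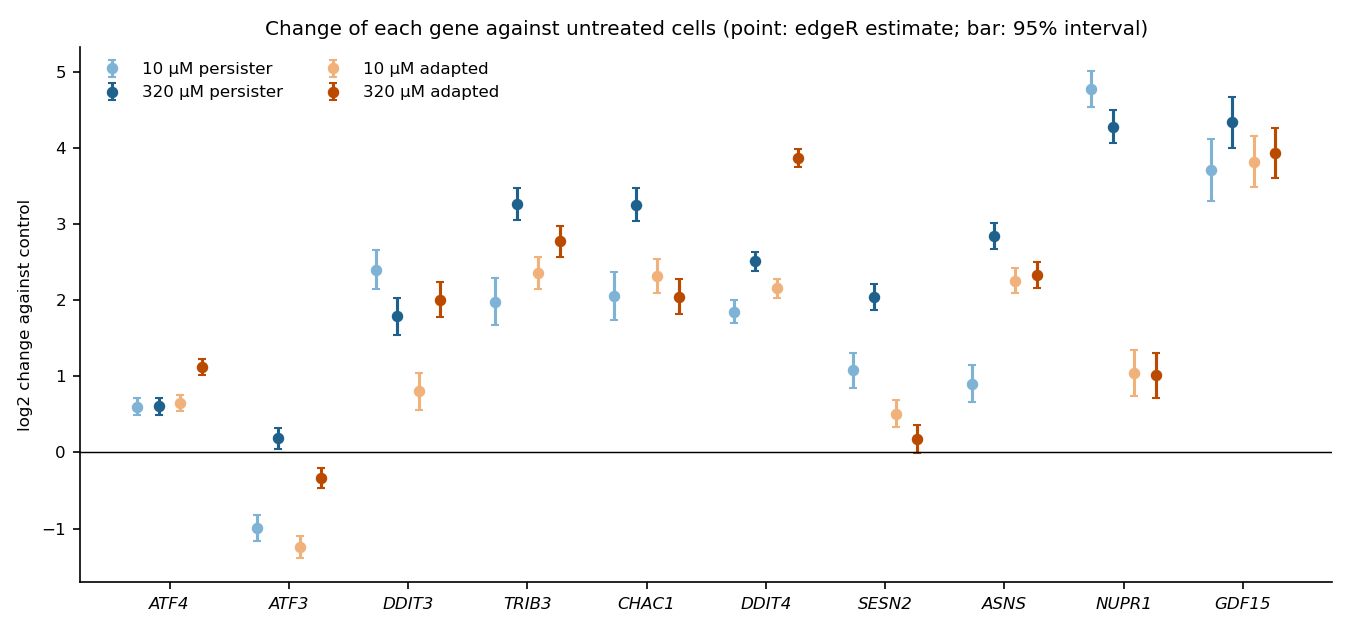
The log2 change of each of the 10 genes against control cells, with its 95% interval, for persister and adapted cells at 10 and 320 µM. NUPR1 is the gene with the widest gap between persister cells (above 4) and adapted cells (near 1), and ATF3 is the only gene with estimates below 0.

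Among the transcription factors, ATF4 itself (chr22:39519695-39522685) was higher in every treated condition, by at most 2.18-fold. Its level was 106 and 111 CPM in the 2 control sums and 156 and 173 in 10 µM persister cells. It was 169 and 160.1 CPM in 320 µM persister cells, 169.8 and 170.0 in cells adapted to 10 µM and 238 and 235 in cells adapted to 320 µM. The cells adapted to 320 µM were above every other sum, and the other 3 treated conditions lay above the control, with the sums of 10 µM persister cells spanning those of 320 µM persister cells and of cells adapted to 10 µM. The log2 change against control was 0.60 ± 0.057, adjusted p = 2.18e-10 in 10 µM persister cells and 0.61 ± 0.052, adjusted p = 4.83e-11 in 320 µM persister cells. It was 0.65 ± 0.050, adjusted p = 2.50e-12 in cells adapted to 10 µM and 1.13 ± 0.050, adjusted p = 2.62e-18 at 320 µM. Pseudogenes of ATF4 exist elsewhere in the genome (4 in GENCODE 29, none in the matrix), and how reads shared with them were treated is not given in the sources used here.

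ATF3 (chr1:212565334-212620777), a stress-induced factor that can repress as well as activate, was lower than in control cells in 3 of the 4 treated conditions. Control sums held 134 and 128 CPM. Persister cells held 74.0 and 57.4 CPM at 10 µM and 157 and 140.2 at 320 µM. Adapted cells held 55.4 and 54.9 CPM at 10 µM and 106 and 102 at 320 µM. Both 10 µM conditions thus lay below the control without overlap, and only the 320 µM persister cells lay above it. ATF3 fell in 10 µM persister cells (log2 change -0.996 ± 0.082, adjusted p = 4.28e-10) and in cells adapted to 10 µM (-1.25 ± 0.069, adjusted p = 2.48e-13). It also fell in cells adapted to 320 µM (-0.33 ± 0.065, adjusted p = 7.96e-05), although the fall was not called among the cells on the deposited g1 list described below (-0.033, adjusted p = 0.778). The rise in 320 µM persister cells was small (0.18 ± 0.066, adjusted p = 0.0229), and it was no longer called with DESeq2 (0.20, adjusted p = 0.0577), among listed cells (0.092, adjusted p = 0.461), without pool 2 of the control (0.15, adjusted p = 0.154) or without pool 1 of the 320 µM persister cells (0.11, adjusted p = 0.287).

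DDIT3 (chr12:57516588-57521737), which encodes the pro-death factor CHOP, was high in persister cells and, among adapted cells, at the high dose. Control sums were at 20.2 and 23.6 CPM, 10 µM persister cells at 129 and 103 and 320 µM persister cells at 82.7 and 68.7. Cells adapted to 10 µM were at 38.2 and 38.2 CPM and those adapted to 320 µM at 88.4 and 87.9. Every treated sum was above every control sum, and the 10 µM persister sums were the highest. The rise over control was 5.29-fold in 10 µM persister cells (log2 2.40 ± 0.12, adjusted p = 1.80e-09) and 3.46-fold in 320 µM persister cells (log2 1.79 ± 0.11, adjusted p = 2.85e-08). It was 1.74-fold in cells adapted to 10 µM (log2 0.80 ± 0.11, adjusted p = 4.23e-05) and 4.03-fold at 320 µM (log2 2.01 ± 0.10, adjusted p = 1.65e-09). Exons of DDIT3 overlap MARS on the opposite strand (355 bases in exons of both) and AC022506.1 on the same strand (105 bases). Whether counting used strand is not given in the sources used here, so reads from the shared stretch cannot be told apart. MARS itself was at 28.2 ± 0.640 CPM in control cells and 42.5 ± 2.10 in 10 µM persister cells (log2 change 0.59 ± 0.092, adjusted p = 2.63e-06).

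**Figure D2:**
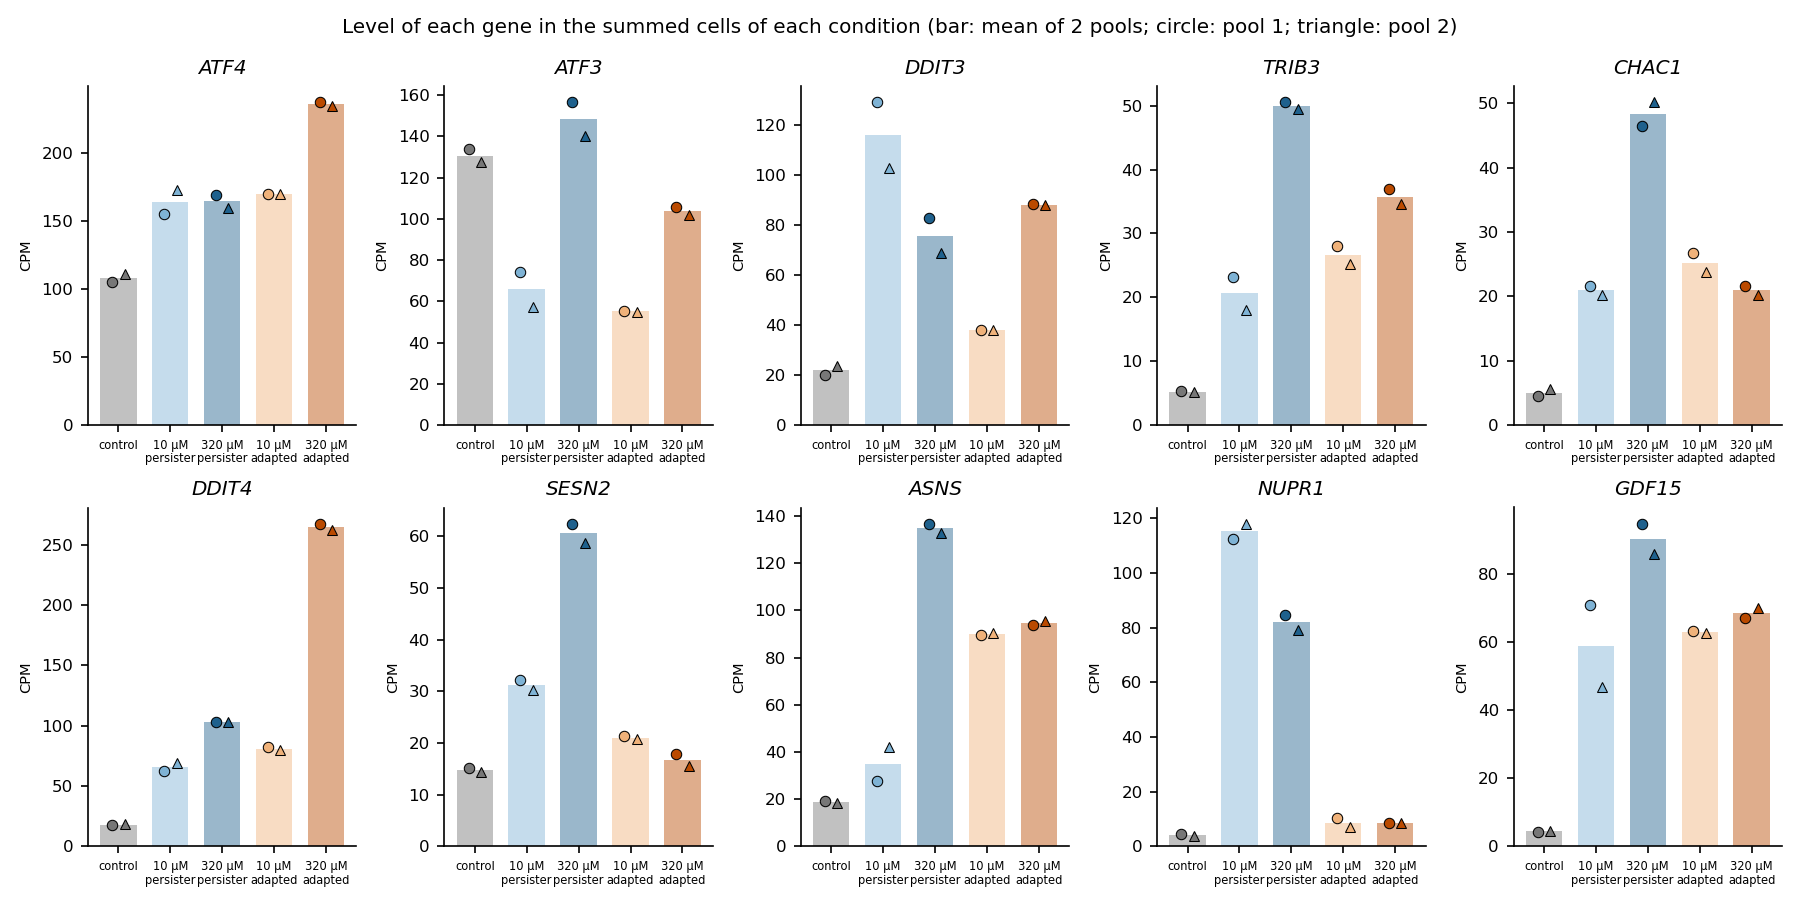
CPM of each gene in the 10 sums, with bars for the mean of 2 pools and separate marks for pool 1 and pool 2. NUPR1 stands high in persister cells only, DDIT4 and ATF4 peak in cells adapted to 320 µM, and ASNS, TRIB3, CHAC1, SESN2 and GDF15 peak in 320 µM persister cells.

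TRIB3 (chr20:362835-397559) encodes a pseudokinase that binds ATF4 and CHOP and damps AKT signalling, and CHAC1 (chr15:40952962-40956519) encodes an enzyme that degrades glutathione. Both started near 5 CPM and were highest in 320 µM persister cells. TRIB3 was at 5.26 and 5.13 CPM in control cells, 23.2 and 18.0 in 10 µM and 50.6 and 49.5 in 320 µM persister cells, 28.1 and 25.2 in cells adapted to 10 µM, and 36.9 and 34.6 in those adapted to 320 µM. No treated sum came near the control. Its rise over control was 3.95-fold in 10 µM and 9.61-fold in 320 µM persister cells (log2 3.26 ± 0.10, adjusted p = 4.08e-21 at 320 µM). In adapted cells it was 5.12-fold and 6.86-fold (log2 2.78 ± 0.10, adjusted p = 1.49e-20 at 320 µM). CHAC1 was at 4.51 and 5.56 CPM in control cells, 21.7 and 20.2 in 10 µM and 46.4 and 50.2 in 320 µM persister cells, 26.7 and 23.7 in cells adapted to 10 µM, and 21.6 and 20.2 in those adapted to 320 µM. Its 320 µM persister sums stood apart and the other treated sums lay close together. Its log2 change over control was 3.26 ± 0.11, adjusted p = 1.08e-20 in 320 µM persister cells and 2.05 ± 0.15, 2.32 ± 0.11 and 2.05 ± 0.11 in the 10 µM persister and the 10 and 320 µM adapted cells.

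DDIT4 (chr10:72273920-72276036, also called REDD1) and SESN2 (chr1:28259527-28282491, sestrin 2) both restrain mTORC1, the kinase complex that drives growth, DDIT4 through the TSC complex and SESN2 as a leucine sensor. Their patterns went apart in adapted cells. DDIT4 was at 17.8 and 18.5 CPM in control cells, 62.2 and 68.7 in 10 µM and 103 and 103 in 320 µM persister cells, 82.1 and 79.8 in cells adapted to 10 µM, and 267 and 262 in those adapted to 320 µM. The cells adapted to 320 µM held more than any other condition, 2.56-fold over persister cells at the same dose. The rise over control reached 14.6-fold there (log2 3.87 ± 0.059, adjusted p = 1.55e-29), against 5.70-fold in 320 µM persister cells (log2 2.51 ± 0.063, adjusted p = 2.12e-23). SESN2 was at 15.1 and 14.4 CPM in control cells, 32.2 and 30.3 in 10 µM and 62.5 and 58.8 in 320 µM persister cells, 21.3 and 20.8 in cells adapted to 10 µM, and 17.9 and 15.5 in those adapted to 320 µM. It was thus highest in 320 µM persister cells and near the control in cells adapted to 320 µM. SESN2 rose in 320 µM persister cells by 2.04 ± 0.083, adjusted p = 1.59e-18 on the log2 scale and in 10 µM persister cells by 1.08 ± 0.11, adjusted p = 1.39e-09. Its difference from control in cells adapted to 320 µM was 0.18 ± 0.091, adjusted p = 0.0833, with a 95% interval of -0.011 to 0.36. That value passed the threshold among listed cells (0.34, adjusted p = 0.0343) and without pool 2 of the cells adapted to 320 µM (0.28, adjusted p = 0.0279). GENCODE 29 places DDIT4-AS1 on the opposite strand of DDIT4, with 847 bases in exons of both.

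ASNS (chr7:97852118-97872542), asparagine synthetase, is the amino acid enzyme of the set. GENCODE 29 places AC079781.5 over it on the same strand, with 1985 bases in exons of both, and lists 4 pseudogenes of ASNS elsewhere, none of which is in the matrix. Control sums were at 19.2 and 18.4 CPM, 10 µM persister cells at 27.9 and 42.0 and 320 µM persister cells at 137 and 133. ASNS was at 89.7 and 90.4 CPM in cells adapted to 10 µM and at 93.8 and 95.7 in those adapted to 320 µM. The 2 pools of 10 µM persister cells differed more from each other than those of any other condition, though both were above the control. ASNS rose 7.16-fold in 320 µM persister cells (log2 2.84 ± 0.083, adjusted p = 9.63e-18), 4.78-fold in cells adapted to 10 µM (log2 2.26 ± 0.081) and 5.03-fold at 320 µM (log2 2.33 ± 0.081). In 10 µM persister cells it rose 1.87-fold (log2 0.90 ± 0.12, adjusted p = 8.23e-07), a call that was lost when every cell was thinned to 3000 UMIs (0.42, adjusted p = 0.198).

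NUPR1 (chr16:28532708-28539174), a small stress-induced chromatin protein, had the largest rise of the 10 genes in 10 µM persister cells. It was at 4.51 and 3.90 CPM in control cells, 112 and 118 in 10 µM and 84.6 and 79.3 in 320 µM persister cells. In adapted cells it was at 10.3 and 7.09 CPM at 10 µM and 8.52 and 8.48 at 320 µM. Persister sums were all far above the rest, and adapted sums lay above the control. The rise over control was 27.4-fold in 10 µM and 19.5-fold in 320 µM persister cells (log2 4.77 ± 0.11, adjusted p = 9.19e-24 at 10 µM). It was 2.06-fold and 2.02-fold in adapted cells (log2 1.04 ± 0.15, adjusted p = 4.66e-07 at 10 µM).

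GDF15 (chr19:18374731-18389176), a secreted stress cytokine that suppresses appetite through the brainstem receptor GFRAL, rose in all 4 treated conditions. Control sums held 4.25 and 4.67 CPM, 10 µM persister cells 70.9 and 46.9, 320 µM persister cells 94.9 and 85.9, cells adapted to 10 µM 63.5 and 62.8 and cells adapted to 320 µM 67.1 and 70.0. The 2 sums of 10 µM persister cells lay on both sides of the adapted sums. The rise over control was 13.1-fold, 20.2-fold, 14.1-fold and 15.3-fold in the same order of treated conditions, with log2 changes from 3.71 ± 0.18, adjusted p = 1.11e-08, to 4.34 ± 0.15, adjusted p = 6.99e-10. GDF15 is also a known p53 target, and of other p53 targets 8 of 22 rose and 8 fell in 10 µM persister cells. In 320 µM persister cells 10 rose and 3 fell, in cells adapted to 10 µM 8 rose and 7 fell, and in cells adapted to 320 µM 8 rose and 13 fell, with CDKN1A among the rises there (2.10 ± 0.081) and BTG2 among the falls (-3.90 ± 0.077). Of all genes, 27.3% and 29.3% rose and fell in 10 µM persister cells, 26.3% and 28.3% in 320 µM persister cells, 33.7% and 33.4% in cells adapted to 10 µM and 37.6% and 36.9% in those adapted to 320 µM, so the p53 counts at 10 µM are close to the background. In 320 µM persister cells the p53 targets rose more often and fell less often than all genes. In cells adapted to 320 µM they fell more often than all genes. The part of p53 in the level of GDF15 was not tested.

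The dose effect of 320 µM against 10 µM differed between persister and adapted cells for most of the genes. In persister cells 7 genes were higher at 320 µM, 2 were lower and ATF4 was not called, against 49.7% of all genes called (25.3% higher, 24.4% lower). In adapted cells 5 were higher, 2 lower and 3 not called (all genes 65.8%, 33.4% higher, 32.4% lower). Library totals alone moved the median of all genes by -0.16 in adapted cells and took the share of rises among all genes called from 50.8% to 37.5%, with no change of call among the 10. The difference of the 2 dose effects, adapted minus persister, passed the threshold for 9 of the 10 genes, 4 above 0 and 5 below, where 49.3% of all genes did (23.4% above, 25.9% below). For ATF4 the log2 dose effect was 0.0033 in persister cells (95% interval -0.12 to 0.12, adjusted p = 0.974) and 0.48 in adapted cells (adjusted p = 1.58e-09). DDIT3 turned around, from -0.61 ± 0.11 in persister cells to 1.21 ± 0.10 in adapted cells. DDIT4 was higher at 320 µM in both, by 0.66 ± 0.068 and by 1.71 ± 0.052. The differences of the dose effects were 1.82 ± 0.15, adjusted p = 6.20e-07 for DDIT3 and 1.05 ± 0.087, adjusted p = 2.24e-11 for DDIT4.

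ASNS, TRIB3, CHAC1 and SESN2 went the other way, with a larger dose effect in persister cells (differences of -1.87, -0.86, -1.48 and -1.29 in that order, all past the threshold). ASNS was higher at 320 µM by 1.94 ± 0.10 on the log2 scale in persister cells, while in adapted cells the value was 0.073 (95% interval -0.076 to 0.22, adjusted p = 0.379). TRIB3 was higher by 1.28 ± 0.12 in persister cells and by 0.42 ± 0.082 in adapted cells. CHAC1 was higher by 1.21 ± 0.12 in persister cells and lower in adapted cells (-0.27 ± 0.092). SESN2 was higher by 0.96 ± 0.10 in persister cells and lower in adapted cells (-0.34 ± 0.091). For CHAC1 the fall in adapted cells was not called with DESeq2 (-0.29, adjusted p = 0.0555), at 3000 UMIs per cell (-0.24, adjusted p = 0.171) and without pool 1 of the cells adapted to 10 µM (-0.18, adjusted p = 0.183) or pool 2 of those adapted to 320 µM (-0.22, adjusted p = 0.113). For SESN2 it was not called at 3000 UMIs per cell (-0.37, adjusted p = 0.0538) and without pool 2 of the cells adapted to 320 µM (-0.23, adjusted p = 0.0777). The rise of TRIB3 in adapted cells was not called among listed cells (0.21, adjusted p = 0.0883).

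NUPR1 was lower at 320 µM in persister cells (-0.49 ± 0.087), with -0.028 in adapted cells (95% interval -0.31 to 0.25, adjusted p = 0.869). GDF15 was higher at 320 µM in persister cells (0.63 ± 0.14), with 0.12 in adapted cells (95% interval -0.12 to 0.36, adjusted p = 0.362). ATF3 was higher at 320 µM in both persister and adapted cells, by 1.18 ± 0.085 and 0.91 ± 0.070. The differences of the dose effects of NUPR1 and GDF15 were 0.46 ± 0.16, adjusted p = 0.0183 and -0.51 ± 0.17, adjusted p = 0.0334. Neither call held under all alternatives: NUPR1 was at 0.22, adjusted p = 0.289 without pool 2 of the cells adapted to 10 µM, and GDF15 at -0.23, adjusted p = 0.0927 without pool 2 of the 10 µM persister cells. The difference for ATF3, -0.27, had an adjusted p of 0.0526, and of 0.0115 with the pool as a replicate block.

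**Figure D3:**
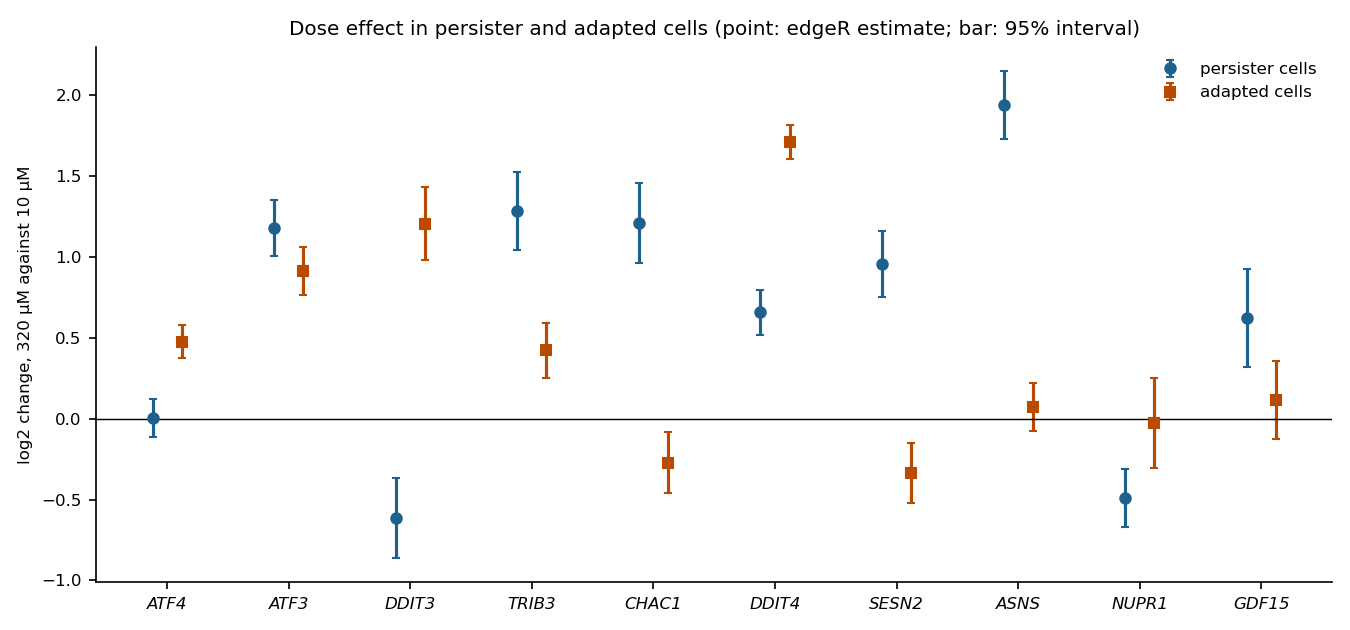
The log2 change at 320 µM against 10 µM olaparib, with its 95% interval, in persister cells (circles) and in adapted cells (squares). DDIT3 lies below 0 in persister cells and above 1 in adapted cells, and ASNS lies near 2 in persister cells and near 0 in adapted cells.

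Set against persister cells at the same dose, adapted cells had less NUPR1 and less SESN2 at both doses. At 10 µM, 3 of the 10 genes were higher in adapted cells, 4 were lower and 3 were not called, against 60.7% of all genes called (31.4% higher, 29.3% lower). NUPR1 fell by 3.73 on the log2 scale (SE 0.11, adjusted p = 9.32e-22), DDIT3 changed by -1.60 ± 0.12 and SESN2 by -0.57 ± 0.11, while ASNS rose by 1.36 ± 0.10. Smaller changes of ATF3 (-0.25 ± 0.089), DDIT4 (0.30 ± 0.067) and TRIB3 (0.38 ± 0.12) were called too. Scaling by library totals alone, which moved the median of all genes by -0.19 and took the share of rises among all called genes from 51.8% to 38.9%, left DDIT4 at 0.11, adjusted p = 0.139 and TRIB3 at 0.19, adjusted p = 0.193. At 3000 UMIs per cell 4 of the 7 calls remained, those of ATF3, DDIT3, ASNS and NUPR1. Without pool 1 of the 10 µM persister cells ATF3 was at -0.070, adjusted p = 0.581, and GDF15, at 0.11 with all sums, was at 0.42, adjusted p = 0.00122. Without pool 2 of the 10 µM persister cells TRIB3 was at 0.20, adjusted p = 0.293 and without pool 1 of the cells adapted to 10 µM at 0.29, adjusted p = 0.0811. Without pool 2 of those adapted cells ATF3 was at -0.25, adjusted p = 0.0629, and CHAC1 was called at 0.35, adjusted p = 0.0355, against 0.27 with all sums. Among listed cells ATF3 was not called (-0.28, adjusted p = 0.0724) and GDF15 was (0.53, adjusted p = 0.0306). SESN2 was at -0.42, adjusted p = 0.172 at 3000 UMIs per cell.

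At 320 µM, 2 of the 10 genes were higher in adapted than in persister cells, 7 were lower and DDIT3 was not called, against 66.7% of all genes called (34.1% higher, 32.6% lower). The 2 that rose were ATF4 (0.52 ± 0.051) and DDIT4 (1.36 ± 0.053). NUPR1 changed by -3.27 ± 0.10, SESN2 by -1.86 ± 0.085 and CHAC1 by -1.21 ± 0.091, and TRIB3 (-0.49 ± 0.082), ASNS (-0.51 ± 0.073), ATF3 (-0.52 ± 0.068) and GDF15 (-0.40 ± 0.11) fell too. Of these, ATF3 was not called among listed cells (-0.12, adjusted p = 0.283). GDF15 was not called among listed cells (-0.31, adjusted p = 0.0915) or without pool 1 of the 320 µM persister cells (-0.33, adjusted p = 0.0601). DDIT3 was at 0.22 (95% interval -0.0024 to 0.44, adjusted p = 0.0752). With the pool as a replicate block its adjusted p was 0.0256, and it was also called with no filter (0.24, adjusted p = 7.17e-04), with only the sums compared (0.20, adjusted p = 0.00947) and without pool 1 of the 320 µM persister cells (0.35, adjusted p = 0.00741). Library totals alone moved the median of all genes by -0.28 here and changed none of the 10 calls, while the share of rises among all called genes went from 51.2% to 33.6%.

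Single treated cells held transcripts of more of these genes than control cells did. At a common depth of 3000 UMIs per cell, with 207 shallower cells left out, a control cell held at least 1 UMI of 0.790 ± 0.0210 of the 10 genes on average (SD, n = 2 pools). The mean was 1.51 ± 0.0257 in 10 µM persister cells and 2.29 ± 0.0640 in 320 µM persister cells. It was 1.27 ± 0.0231 in cells adapted to 10 µM and 1.72 ± 0.0106 at 320 µM. The order of the conditions was the same in both pools. Cells with 5 or more of the genes made up 0.238% ± 0.0718 of control cells, 11.4% ± 0.860 of 320 µM persister cells and 3.61% ± 2.14, 2.09% ± 0.121 and 2.84% ± 0.390 of the 10 µM persister and the 10 and 320 µM adapted cells. Cells with none made up 42.4% of control cells and 13.8% of 320 µM persister cells. Shares are given as a description, with no test. The shallower cells left out were unevenly spread. They were 27 of 300 and 25 of 263 10 µM persister cells in the 2 pools. Of control cells they were 11 of 2435 and 18 of 2155.

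By gene, NUPR1 had a UMI in 0.743% and 1.17% of control cells in the 2 pools, 19.4% and 20.2% of 10 µM and 17.2% and 15.0% of 320 µM persister cells, 2.28% and 1.92% of cells adapted to 10 µM, and 1.98% and 1.86% of those adapted to 320 µM. The shares in adapted cells lay above those in control cells in both pools and far below those in persister cells. GDF15 was seen in 0.701% and 1.17% of control cells, 12.5% and 6.30% of 10 µM persister and 19.4% and 16.6% of 320 µM persister cells. It was seen in 9.02% and 9.15% of cells adapted to 10 µM and 9.46% and 9.84% of those adapted to 320 µM. Cells with GDF15 also held more of it, 1.85 ± 0.00528 UMIs per positive cell in cells adapted to 10 µM against 1.14 ± 0.138 in control cells. That measure cannot lie below 1, and few control cells were positive. Without thinning it was 3.58 and 1.65 in the same order. ASNS was seen in 4.58% and 4.68% of control cells, 4.76% and 7.98% of 10 µM persister cells and 28.7% and 30.7% of 320 µM persister cells. DDIT4 was seen in 5.45% and 5.57% of control cells and 40.6% and 41.7% of cells adapted to 320 µM. ATF3 was seen in 27.3% ± 0.423 of control cells and 14.4% ± 0.145 of cells adapted to 10 µM. TRIB3, CHAC1 and SESN2 stayed below 20% of cells in every condition, with their highest shares in 320 µM persister cells (13.5% ± 0.873, 13.7% ± 0.678 and 17.1% ± 1.28).

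Without thinning, when deeper cells count for more, the shares of cells with a UMI were higher: 2.56% of control and 35.9% of 10 µM persister cells for NUPR1, 2.73% and 34.9% of control and 320 µM persister cells for GDF15, and 11.6% and 60.6% for ASNS. DDIT4 was then seen in 14.5% of control cells and 67.1% of cells adapted to 320 µM. No cell type known to lack these genes was identified in the pools. Cells of all 5 conditions shared the droplets' free RNA within a pool, so the control share, from 0.936% for GDF15 to 27.3% for ATF3, includes what free RNA gave to those cells. The share for SESN2 in cells adapted to 320 µM (3.72% ± 0.624) was not above that in control cells (3.91% ± 0.565).

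**Figure D4:**
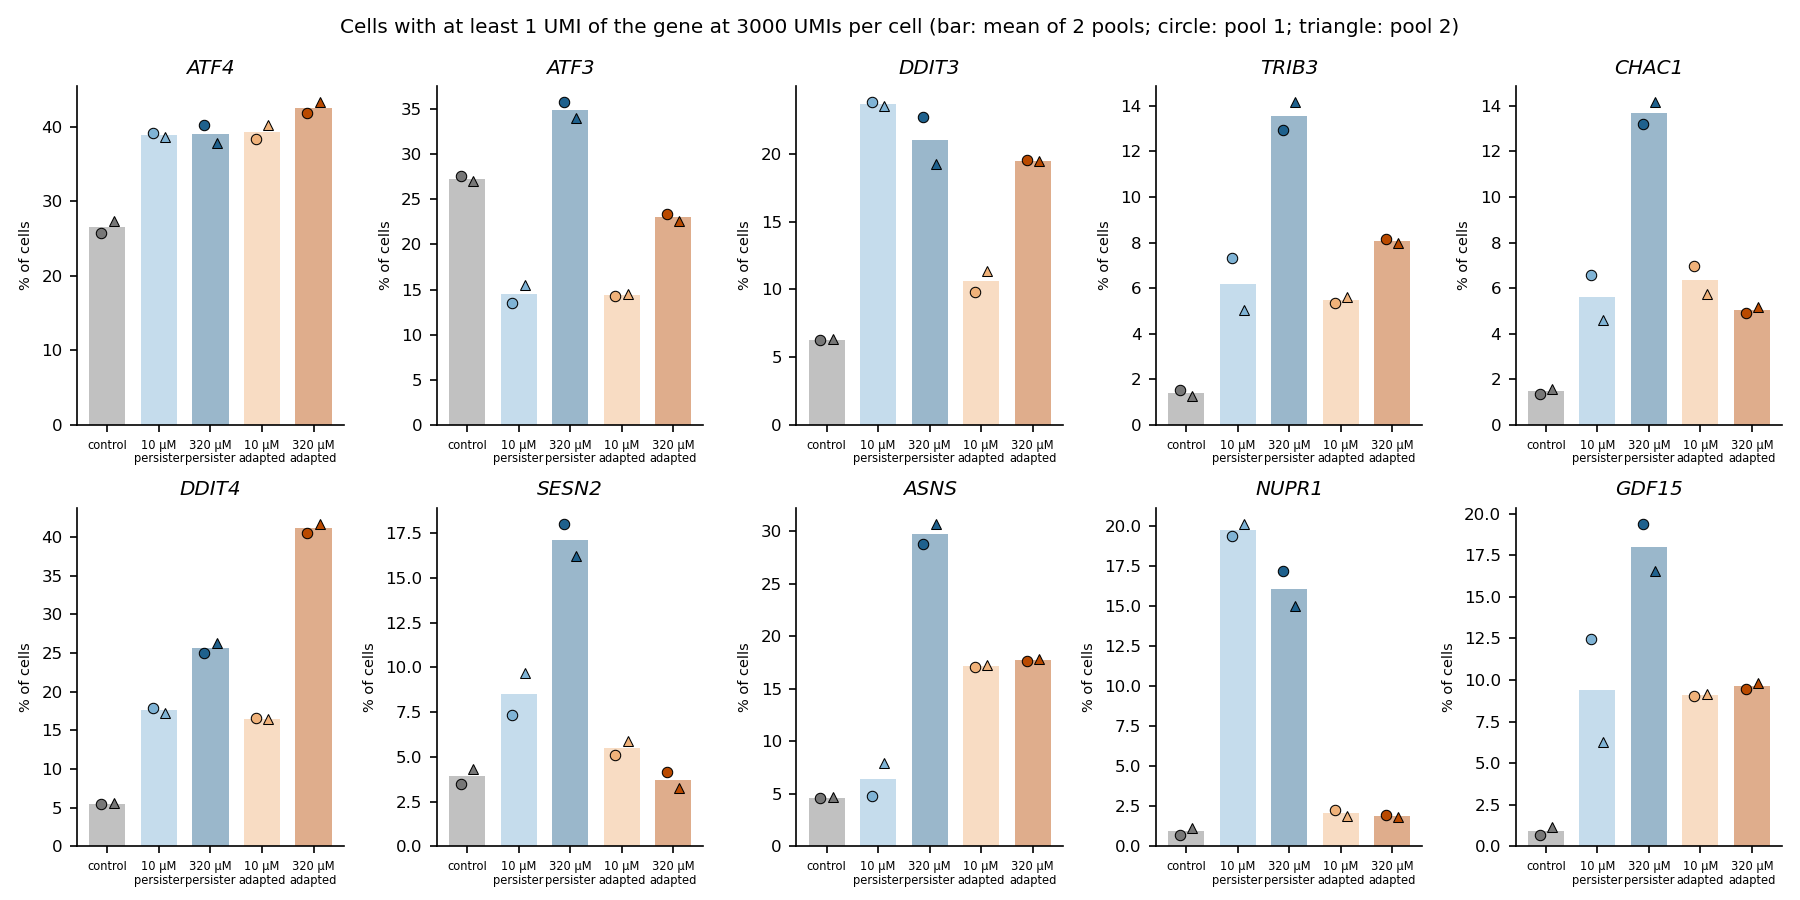
Percent of cells with at least 1 UMI of each gene at 3000 UMIs per cell, by condition, with bars for the mean of 2 pools and marks for each pool. Cells adapted to 320 µM lead for DDIT4 and ATF4, 10 µM persister cells lead for DDIT3 and NUPR1, and 320 µM persister cells lead for the other 6 genes.

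Some of the transcripts were found in the same cells, also at this common depth. In 320 µM persister cells at 3000 UMIs, cells with TRIB3 (94 and 83 cells in the 2 pools) held GDF15 in 44.9% ± 7.24 of cases, against 13.8% ± 1.503 of cells without TRIB3. Within the listed cells the shares were 51.7% and 42.1% against 17.7% and 15.0%. The same pair gave, in cells adapted to 10 µM, 43.8% and 40.9% against 7.06% and 7.25%, and in those adapted to 320 µM, 25.5% and 29.5% against 8.04% and 8.14%. In control cells 0 of 37 and 27 cells with TRIB3 had GDF15, against 0.712% and 1.18% of cells without. So few cells allow shares of up to 8.11% and 11.1%, limits that rest on cell number alone and treat cells as independent. ATF3 gave the lowest ratio of a pair: in 320 µM persister cells it was seen in 35.7% and 35.7% of cells with DDIT4 and 35.8% and 33.3% of cells without. Over the 90 ordered pairs of the 10 genes in that condition, the share of cells with the second gene was 1.03 to 3.69 times as high in cells with the first gene as in cells without it (median 1.39, and 1.12 for pairs with ATF3), as ratios of the means of 2 pools. In single pools it was lower for 6 pairs in pool 1 and 2 in pool 2. The 90 ordered pairs hold each pair in both orders. Pairs of other genes were not computed, so these ratios have no background to be read against. These are counts over cells of 2 pools and carry no test.

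A deposited table of cells, marked g1 with no statement of what that means, lists 7762 of the 13800 cells, and cells on it made up 42.9% ± 0.839 of control cells, 75.7% ± 0.504 and 76.8% ± 2.68 of 10 and 320 µM persister cells, and 65.0% ± 2.92 and 54.5% ± 0.860 of cells adapted to 10 and 320 µM. In 320 µM persister cells TRIB3 was at 66.3 and 66.9 CPM in listed cells and 14.0 and 13.0 in the others, a ratio of means of 4.93. GDF15 was at 125 and 111 CPM in listed cells and 23.99 and 33.8 in the others (ratio 4.10), and NUPR1 at 109 and 104 CPM in listed cells and 27.6 and 28.4 in the others (ratio 3.81). Both listed sums lay above both other sums for these 3 genes, and also for CHAC1, DDIT4, DDIT3, ASNS, SESN2 and ATF4. For ATF3 the sums overlapped. How many of all genes separated in this way was not counted. The ratio was lower for CHAC1 (2.91), DDIT4 (2.28), DDIT3 (2.24), ASNS (2.15) and SESN2 (1.60), lower still for ATF4 (1.39), and 0.958 for ATF3. In 10 µM persister cells the ratios were 1.63 for TRIB3, 3.33 for NUPR1 and 0.895 for GDF15, so GDF15 was not higher in listed cells there. In cells adapted to 320 µM the ratios were 1.37 for TRIB3, 1.17 for NUPR1 and 0.836 for ASNS, while ATF3 had 1.62 and GDF15 1.84. In control cells they ran from 0.820 for ASNS to 1.97 for NUPR1. Among cells not on the list, both sums of 320 µM persister cells were above both sums of control cells for all 10 genes: ASNS was at 89.5 and 62.1 CPM against 18.9 and 21.5, and NUPR1 at 27.6 and 28.4 against 3.06 and 3.24. TRIB3 was at 14.0 and 13.0 against 4.08 and 4.82, and ATF4 at 141 and 121 against 105 and 112. How many of all genes were likewise higher in those off-list sums was not counted, so the count of the 10 genes has no background beside it. How cells came onto the list is not known here, and levels on and off it were not tested.

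**Figure D5:**
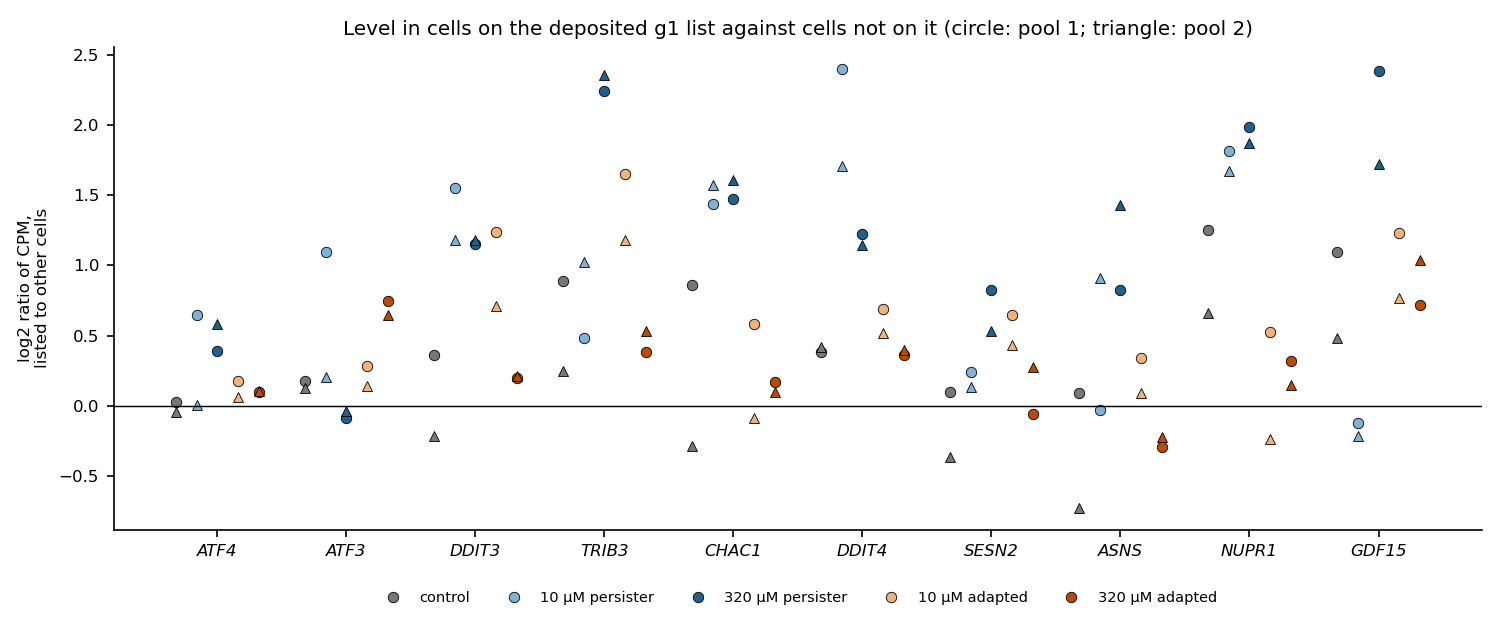
Log2 ratio of CPM in cells on the deposited g1 list to CPM in the other cells, by gene, condition and pool. TRIB3, NUPR1 and GDF15 reach the highest ratios in 320 µM persister cells, and DDIT4 does in 10 µM persister cells (4.01 as a linear ratio of means), while ATF4 lies near 0 in most conditions.

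Other genes of the pathway, on lists chosen by name with earlier results known, are given with the share of all genes called. Of the kinases that start the response, EIF2AK2, the sensor of double-stranded RNA, was at 93.7 ± 6.34 CPM in control cells and 326 ± 4.63 in 10 µM persister cells (1.80 ± 0.057, adjusted p = 9.60e-22). It fell in 320 µM persister cells, to 57.9 ± 2.15 CPM (-0.69 ± 0.062, adjusted p = 9.83e-11). EIF2AK3, the sensor of the endoplasmic reticulum, rose in 320 µM persister cells by 0.69 ± 0.23, adjusted p = 0.0149, at 3.46 ± 0.572 CPM in control and 5.62 ± 2.76 CPM in those cells, where the sums of both conditions overlapped. EIF2AK1, activated by heme loss, fell in cells adapted to 10 µM (-0.64 ± 0.055) and 320 µM (-0.52 ± 0.054). For EIF2AK4, the sensor of uncharged tRNA, the values in persister cells were -0.072 ± 0.091, adjusted p = 0.526 at 10 µM and 0.16 ± 0.074, adjusted p = 0.0704 at 320 µM. PPP1R15A (GADD34), an ATF4 and CHOP target that brings a phosphatase to eIF2 and so ends the response, was at 92.9 ± 2.52 CPM in control and 97.5 ± 3.02 in 320 µM persister cells (0.070 ± 0.055, adjusted p = 0.299). It rose in cells adapted to 10 µM, to 148 ± 0.841 CPM (0.67 ± 0.051, adjusted p = 1.60e-12), and to 320 µM, to 213 ± 6.01 CPM (1.20 ± 0.051, adjusted p = 8.85e-19). In 10 µM persister cells it fell (-0.20 ± 0.064, adjusted p = 0.0102), whereas NUPR1 and DDIT3 were highest there. Of the upstream genes tested, 5 of 18 rose and 5 fell in 10 µM persister cells and 4 of 18 rose and 2 fell in 320 µM persister cells, with medians of 0.070 and 0.056. In cells adapted to 10 µM 4 rose and 9 fell, and in those adapted to 320 µM 6 rose and 8 fell. The shares of all genes were 27.3% and 29.3% higher and lower in 10 µM persister cells, near the share of this list, 26.3% and 28.3% in 320 µM persister cells, 33.7% and 33.4% in cells adapted to 10 µM and 37.6% and 36.9% in those adapted to 320 µM.

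Genes of amino acid supply, which ATF4 is known to raise along with ASNS, were counted in each condition against control. Of those tested, 10 of 21 rose and 4 fell in 10 µM persister cells (median log2 change 0.36), 17 of 21 rose and 1 fell in 320 µM persister cells (median 0.80), 8 of 21 rose and 9 fell in cells adapted to 10 µM (median -0.031) and 12 of 21 rose and 3 fell in cells adapted to 320 µM (median 0.55). Over all genes the shares that rose and fell were 27.3% and 29.3%, 26.3% and 28.3%, 33.7% and 33.4% and 37.6% and 36.9% in the same order, and the counts in cells adapted to 10 µM are near them. PSAT1 and MTHFD2, enzymes of serine synthesis and mitochondrial folate metabolism, rose in 320 µM persister cells by 1.23 ± 0.046 and 1.09 ± 0.050. SLC3A2, the heavy chain of amino acid exchangers, rose there by 1.62 ± 0.063. PHGDH, the first enzyme of serine synthesis, fell in cells adapted to 320 µM (-1.33 ± 0.056) while SHMT2, the mitochondrial serine hydroxymethyltransferase, rose (1.33 ± 0.055). Aminoacyl-tRNA synthetases load tRNAs with amino acids and XPOT exports tRNAs from the nucleus, and of these 13 genes 12 rose and none fell in 320 µM persister cells (median 0.81), with SARS at 1.08 ± 0.050, GARS at 1.13 ± 0.055 and CARS at 1.22 ± 0.068. In 10 µM persister cells 8 rose and 4 fell, and the rise of WARS was 2.74 ± 0.073. In cells adapted to 10 and 320 µM 5 rose and 2 fell, and 10 rose and 3 fell, respectively.

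Beside the counts of the next lists, all genes rose and fell in 27.3% and 29.3% of cases in 10 µM persister cells, 26.3% and 28.3% in 320 µM persister cells, 33.7% and 33.4% in cells adapted to 10 µM and 37.6% and 36.9% in cells adapted to 320 µM. Of further genes known as outputs of ATF4 or CHOP, 22 of 27 rose and 3 fell in 10 µM persister cells, 16 rose and 3 fell in 320 µM persister cells, 14 rose and 6 fell in cells adapted to 10 µM and 17 rose and 7 fell at 320 µM. STC2, a secreted stress glycoprotein, rose in all 4 conditions, by 2.84 ± 0.11, 2.19 ± 0.10, 2.26 ± 0.090 and 2.44 ± 0.089 in that order, and FAM129A, a stress-induced cytoplasmic protein, by 2.13 ± 0.081, 2.55 ± 0.069, 1.95 ± 0.068 and 2.44 ± 0.066. SQSTM1, the autophagy receptor p62, rose in 10 µM persister cells by 2.34 ± 0.044. Of possible partners of ATF4, 11 of 19 rose and 3 fell in 10 µM persister cells, and 9 rose and 2 fell, 10 rose and 6 fell, and 12 rose and 4 fell in 320 µM persister cells and cells adapted to 10 and 320 µM. Among them CEBPG rose in 320 µM persister cells (1.47 ± 0.062), CEBPD in 10 µM persister cells (1.37 ± 0.077) and FOSL1 in cells adapted to 320 µM (4.27 ± 0.13). Of genes of the other 2 branches of the unfolded protein response, those of XBP1 and ATF6, 11 of 19 rose and 1 fell in 10 µM persister cells. In 320 µM persister cells 9 rose and 6 fell, and the medians were 0.33 and 0.13. In the same cells the medians were 1.92 and 2.67 for the 10 genes. They were 0.84 and 0.59 there for the further outputs of ATF4 or CHOP. HERPUD1, of endoplasmic reticulum degradation, rose by 1.77 ± 0.057 and 1.32 ± 0.054 in those cells. Of the XBP1 and ATF6 genes 11 rose and 1 fell in cells adapted to 10 µM, and 10 rose and 3 fell in cells adapted to 320 µM. Of antioxidant targets of NRF2, a factor that can share targets with ATF4, 15 of 19 rose and 2 fell in 10 µM persister cells and 8 rose and 8 fell in cells adapted to 10 µM. At 320 µM 16 rose and 1 fell in persister cells, and 15 rose and 2 fell in adapted cells, where the ferritin chain FTH1 rose by 2.14 ± 0.032. The medians of the NRF2 targets were 0.71 in 10 µM and 0.90 in 320 µM persister cells.

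Across the 10 sums some of the genes ran closely together, which is given as a description because the 10 sums are 5 conditions in 2 pools. Pearson's r of log2 CPM was 0.98 for ATF4 and DDIT4, 0.96 for TRIB3 and GDF15, and 0.96 for TRIB3 and CHAC1. NUPR1 came closest to SESN2 (r = 0.86) and had an r of 0.18 with ATF4. ATF3 had an r between -0.30 and 0.21 with the other 9. Among 6553 other genes with at least 20 CPM in some condition, those with the pattern most like a gene were named by r: for ATF4 NFKBIL1 (r = 0.99), EIF2S2 (r = 0.99), BORCS6 (r = 0.99), for DDIT4 BORCS6 (r = 0.99), VAMP2 (r = 0.99), GPX4 (r = 0.99), and for DDIT3 EMC7 (r = 0.98), DPM2 (r = 0.97), PHLDA2 (r = 0.97). For ASNS they were SEL1L (r = 0.96), TRIQK (r = 0.95), MIEN1 (r = 0.95), and for NUPR1 SAMHD1 (r = 0.99), NEU1 (r = 0.99), SPSB3 (r = 0.98). TRIB3 and CHAC1 shared AHNAK2 among their 3 (r = 0.98 and 0.96), and for GDF15 they were FAM129A (r = 0.99), PLEKHF1 (r = 0.98), CYBRD1 (r = 0.97). The genes most like ATF3 were UBA3 (r = 0.99), WDFY2 (r = 0.98), NUDT16 (r = 0.97). TRIB3 was also close to RRNAD1 and B4GALT7, and CHAC1 to TSC22D3 and TMEM60.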

How the data were processed

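Cells of the Kuramochi line were hashtagged, mixed into 2 pools and sequenced with the droplet-based 10x Genomics 3′ chemistry, per the labels' protocols. The authors deposited a matrix of UMI counts, whole numbers for 19893 genes in 13800 cells, and a table marked g1 with a total UMI count for 7762 of these cells. The deposited total equalled the matrix total for 37 of them and differed from it by a median of 0.108%. The submitters' processing notes name Cell Ranger 3.1, Seurat and build hg38 (GRCh38) without a role. For counting settings, cell filters and doublets no statement was found, and no doublet caller was run. Every cell had at least 502 genes. Condition and pool were read from the cell names, since each deposited library holds all conditions of a pool.

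Counts were summed over cells by condition and pool (10 sums) and scaled by the trimmed mean of M-values (factors 0.868 to 1.11). One edgeR 4.0.16 model (R 4.3.3, quasi-likelihood F test, robust, low counts removed by filterByExpr, 5 residual degrees of freedom, biological coefficient of variation 4.39%) was fitted to all sums for 13330 genes. Benjamini-Hochberg adjustment ran over all of them, with 0.05 as the threshold. The fit was tested on simulated data. Pool numbers paired the sums: differences between pools correlated at 0.257 to 0.461 between conditions over 5454 genes. Shares of cells with a UMI were counted after thinning each cell at random to 3000 UMIs. Alternatives were library totals alone, DESeq2 1.42.0, no filter, the pool as a replicate block, listed cells only, cells thinned before summing, only the sums compared, and each sum left out in turn. Gene positions are those of GENCODE 29 on GRCh38, and start windows come from RefSeq.

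The genes and all lists were chosen with earlier results of these data known. The text names, of each other list, genes that passed the test with at least 20 CPM in the higher condition and the lowest p-values, up to 3 per comparison, and the eIF2 kinases and PPP1R15A. MARS was named for its overlap with DDIT3. GPT2, HMOX1, SLC7A11, BBC3, PMAIP1, SESN1 and TNFRSF10B stand on 2 lists. Counts from 3′ ends are not compared between genes. The genes most like SESN2 are not reported here.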

Additional observations from a re-analysis of the deposited data

Results flagged for a closer look

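The dose effect of 320 µM against 10 µM olaparib differed between adapted and persister cells by a test of the difference itself (edgeR interaction term, adjusted over all genes) for 9 of the 10 genes, where 49.3% of all genes passed. The difference, adapted minus persister on the log2 scale, was 1.82 for DDIT3, the one gene whose called dose effects ran in opposite directions with a fall in persister cells. It was 1.05 for DDIT4 and 0.47 for ATF4, whose rise with dose was larger in adapted cells. For the amino acid enzyme ASNS the difference was -1.87, for CHAC1 -1.48, for SESN2 -1.29 and for TRIB3 -0.86, with the larger rise in persister cells.

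For NUPR1 the difference was 0.46 and for GDF15 -0.51, and both calls were lost under several alternatives. NUPR1 was at 0.37, adjusted p = 0.0556 with library totals alone and at 0.40, adjusted p = 0.200 among listed cells. NUPR1 was at 0.22, adjusted p = 0.289 without pool 2 of the cells adapted to 10 µM and at 0.53, adjusted p = 0.156 with cells thinned to 3000 UMIs. It also lost its call without pool 2 of either persister group (0.43, adjusted p = 0.0559 at 10 µM and 0.41, adjusted p = 0.0661 at 320 µM) and without either pool of the cells adapted to 320 µM (0.46, adjusted p = 0.0604 and 0.47, adjusted p = 0.0581). GDF15 was at -0.66, adjusted p = 0.123 with cells thinned and at -0.49, adjusted p = 0.0590 with only the sums compared. GDF15 was at -0.23, adjusted p = 0.0927 without pool 2 of the 10 µM persister cells. It was not called without pool 2 of the control (-0.51, adjusted p = 0.0512), pool 1 of the 320 µM persister cells (-0.44, adjusted p = 0.0943), or any of the 4 adapted sums (pools 1 and 2 at 10 µM: -0.50, adjusted p = 0.0848 and -0.52, adjusted p = 0.0763, at 320 µM: -0.48, adjusted p = 0.0853 and -0.54, adjusted p = 0.0614). The difference for ATF3 passed the threshold with library totals alone (-0.36, adjusted p = 0.00727), with no filter (-0.25, adjusted p = 0.0268), without pool 1 of the 10 µM persister cells (-0.46, adjusted p = 9.53e-04) and without pool 2 of the 320 µM persister cells (-0.35, adjusted p = 0.0158).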

How the results depend on the processing

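The 10 genes in 9 comparisons gave 90 values, and 70 of them were counted as unchanged under all 17 alternatives. A change of sign was counted only for values called in the main fit. A value not called there counted as unchanged when its sign changed. Over 1530 recomputed values, 43 lost a call and 19 gained one by this count, and no called value turned around. With the pool as a replicate block, DDIT3 between adapted and persister cells at 320 µM (0.22, adjusted p = 0.0256) and ATF3 in the difference of dose effects (-0.27, adjusted p = 0.0115) gained a call, and no other call among the 10 genes changed. DDIT3 at 320 µM was also called with no filter (0.24, adjusted p = 7.17e-04), with only the sums compared (0.20, adjusted p = 0.00947), without either control or 10 µM persister sum, and without pool 1 of the 320 µM persister cells (0.35, adjusted p = 0.00741). With each sum left out in turn, the number of the 10 genes called was 10 for 10 µM and 9 to 10 for 320 µM persister cells against control, 10 and 9 to 10 for adapted cells, 6 to 7 and 9 to 10 for adapted against persister cells at 10 and 320 µM, 9 and 5 to 7 for dose in persister and adapted cells, and 7 to 10 for the difference of dose effects.

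Thinning each cell to 3000 UMIs before summing left fewer counts. Over all genes it called 4468 instead of 7547 in 10 µM persister cells against control, 4452 instead of 7282 in 320 µM persister cells, 4851 instead of 8094 between adapted and persister cells at 10 µM (with 4 instead of 7 of the 10 genes), 3325 instead of 6624 for dose in persister cells and 3714 instead of 6577 for the difference of dose effects. The mean number of the 10 genes found per cell moved with depth. At 2000 UMIs, 5000 UMIs and without thinning it was 0.571, 1.19 and 1.80 in control cells, 1.21, 2.10 and 3.52 in 10 µM persister cells, 1.67, 3.26 and 5.003 in 320 µM persister cells, 0.883, 1.82 and 2.57 in cells adapted to 10 µM and 1.26, 2.45 and 3.44 in cells adapted to 320 µM. Among listed cells at 3000 UMIs it was 1.63, 2.49 and 1.33 in the 10 and 320 µM persister cells and the cells adapted to 10 µM. The sums of the 10 µM persister cells were the smallest because they held only 300 and 263 cells. There 3 UMIs equal 0.849 and 0.801 CPM, although median depth per cell was highest in that condition.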
